A study of Mus musculus with 36 samples.

Results

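Genes of prostaglandin, leukotriene and platelet-activating factor metabolism were followed across the distal colon of 36 mice. The 10 genes were Ptgs2, Ptges, Ptgis, Hpgd, Ptger4, Alox5ap, Ltc4s, Alox15, Ltb4r1 and Pla2g7, chosen by name. Each was read from the probe set that the platform annotation gives to that gene alone. All 10 had exactly 1 such probe set among 28853 on the array, of which 21789 carry a single gene.

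Each animal gave 1 array of distal colon RNA. Control held 9 animals, the scrambled siRNA group 7, siTNF (titled TNFa siRNA-A, an unmodified siRNA against Tnf) 6, siTNF-OMe (titled TNFa-OMe siRNA-B, with O-methyl nucleotides) 6 and siTNF-OMe-P (titled TNFa-OMe-P siRNA-C, with O-methyl-propanediol nucleotides) 8. The siRNAs were given into the rectum. Dextran sulfate sodium (DSS), a polymer that injures the colon lining, is the labelled treatment at 5% in all 36 animals, Control among them, but the design text lists no untreated or vehicle arm, so the treatment of Control remains unresolved. Strain, sex, age and the time of sampling are not given in the sources used here.

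Prostaglandins and leukotrienes are made from arachidonic acid, which phospholipases free from membranes. Cyclooxygenases turn it into prostaglandin H2, and terminal synthases then make prostaglandin E2, prostacyclin and related mediators, while 5-lipoxygenase, with its activating protein FLAP, makes leukotrienes. In the colon, prostaglandin E2 is known both as an inflammatory mediator and as a factor in repair of the epithelium, and leukotriene B4 is known for attracting neutrophils.

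All values are log2 signals, and they compare arrays for one gene, never one gene with another. They ran from 4.95 to 14.1 over all probe sets, and the lowest correlation between any pair of arrays was 0.852. In 8 arrays the standard deviation over probe sets was under 1.7 (4 Control, 1 scrambled, 1 siTNF and 2 siTNF-OMe-P). For some values the result without these narrow arrays is given beside the main one. Colonic epithelium markers averaged 11.5 to 12.2 and smooth muscle markers 11.8 to 13.0 across the arrays, so markers of both compartments of the labelled tissue were present. Myeloperoxidase (MPO) activity, an enzyme activity of neutrophils taken from the labels, had a median of 0.0380 units per mg in Control (0.009 to 0.088), 0.393 in scrambled, 0.206 in siTNF, 0.514 in siTNF-OMe and 0.407 in siTNF-OMe-P.

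Tnf, the gene that the 3 TNF siRNAs target, checks the labels first. Its signal ran from 7.60 through a median of 7.91 to 8.67 in Control and from 8.36 through 8.67 to 9.47 in scrambled. It ran from 8.72 through 9.17 to 9.42 in siTNF, from 8.41 through 8.80 to 9.09 in siTNF-OMe and from 8.42 through 8.70 to 8.94 in siTNF-OMe-P. Tnf rose over Control in all 4 groups, by 0.96 ± 0.15, 1.15 ± 0.15, 0.84 ± 0.15 and 0.74 ± 0.14 log2 (SE, limma adjusted p from 2.12e-06 to 2.54e-04). The values of the TNF siRNA groups lay within the range of scrambled, from which siTNF differed by 0.19 (95% interval -0.14 to 0.52), siTNF-OMe by -0.12 (-0.46 to 0.21) and siTNF-OMe-P by -0.23 (-0.54 to 0.08), with a limma adjusted p of 1.00 in each. A Tnf mRNA level lower than in scrambled was therefore not detected in any TNF siRNA group.

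Over Control, Alox5ap, Pla2g7 and Ptgis rose in all 4 siRNA-dosed groups, the scrambled group among them. Ptgs2 rose in the 3 TNF siRNA groups, and Ptges rose in siTNF-OMe and siTNF-OMe-P. Hpgd fell in siTNF-OMe-P and Alox15 fell in siTNF. Ptger4, Ltc4s and Ltb4r1 passed in no group. By limma at a Benjamini-Hochberg adjusted p under 0.05, 3 of 10 genes rose and 0 fell in scrambled, where 11.7% of all probe sets passed (7.27% up and 4.45% down). In siTNF 4 rose and 1 fell, where 13.8% of probe sets passed (9.09% up and 4.71% down). In siTNF-OMe 5 rose and 0 fell, where 14.8% passed (9.01% up and 5.81% down). In siTNF-OMe-P 5 rose and 1 fell, where 15.9% passed (9.35% up and 6.58% down). At an unadjusted p under 0.05 by limma, in either direction, the counts in the 4 groups were 4, 6, 7 and 7 of the 10 genes, beside 5934, 6765, 6870 and 7078 of the 28853 probe sets. The median difference of the 10 genes was 0.17, 0.27, 0.35 and 0.34 log2 in the 4 groups, in that order, against -0.03, -0.04, -0.05 and -0.03 over all probe sets. The 4 comparisons share the 9 Control arrays and so are not independent of one another.

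**Figure D1:**
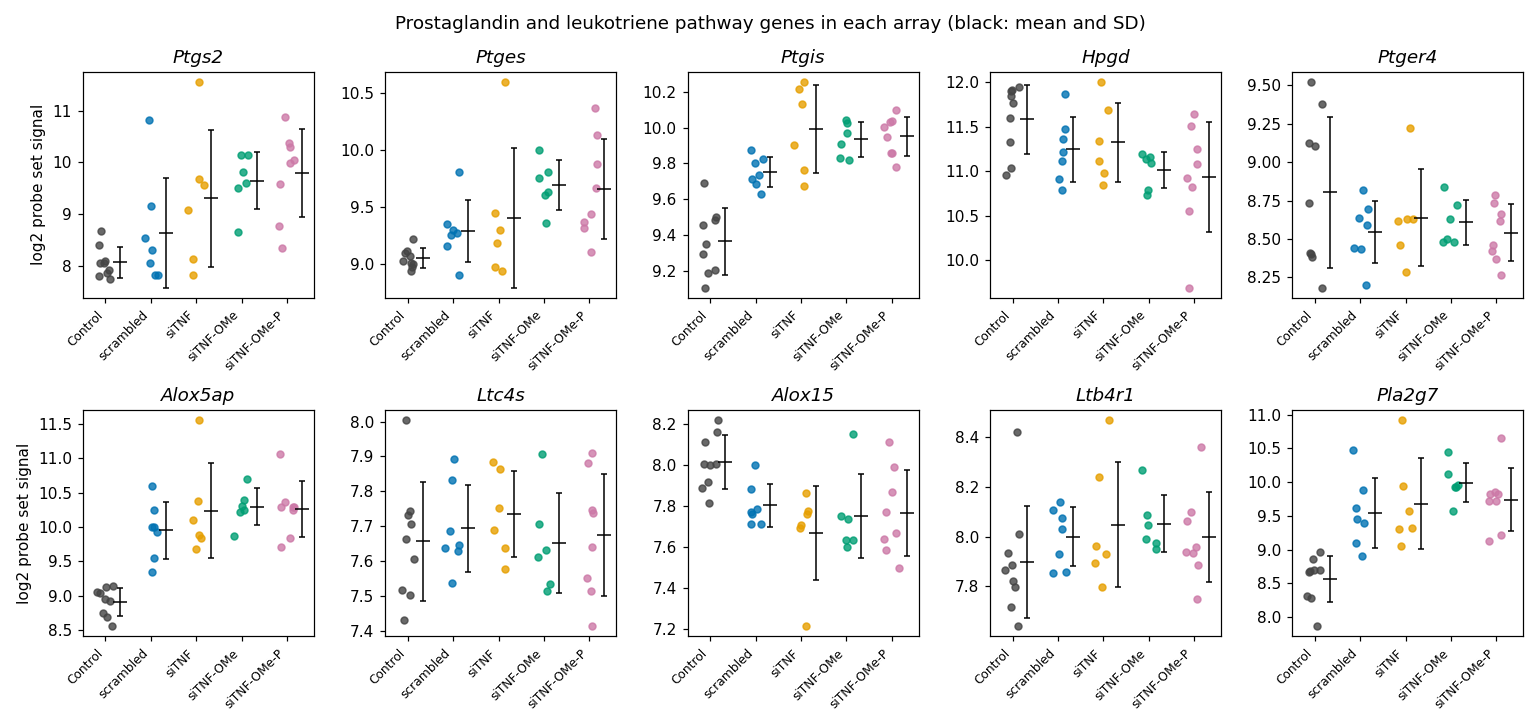
Log2 probe set signal (y axis) of each of the 10 genes in every array, by group (x axis), with the group mean and SD in black (n = 9, 7, 6, 6 and 8). All dosed arrays of Alox5ap lie above the Control arrays, Ptgs2 spreads widely within scrambled and siTNF, and the groups overlap for Ptger4, Ltc4s and Ltb4r1.

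Ptgs2 encodes the inducible cyclooxygenase COX-2, which makes prostaglandin H2. Its signal lay between 7.75 and 8.68 in Control, with a median of 8.05. It reached from 7.83 through a median of 8.32 to 10.8 in scrambled and from 7.83 through 9.32 to 11.5 in siTNF. It ran from 8.65 through 9.71 to 10.1 in siTNF-OMe and from 8.35 through 10.02 to 10.9 in siTNF-OMe-P. All 4 dosed groups overlapped Control, and 18 of the 27 dosed arrays lay above every Control array. Within scrambled, replicate 2 stood far above the others, whose next highest value was 9.16. By limma with Benjamini-Hochberg adjustment, Ptgs2 rose 2.45-fold in siTNF (1.29 ± 0.43 log2, SE, adjusted p = 0.0372, 5 of 6 arrays above the Control mean). It rose 2.90-fold in siTNF-OMe (1.54 ± 0.43, adjusted p = 0.0104, 6 of 6) and 3.24-fold in siTNF-OMe-P (1.696 ± 0.39, adjusted p = 0.00190, 8 of 8). The scrambled value was 0.58 ± 0.41 (95% interval -0.25 to 1.41, adjusted p = 0.493). It was 0.36 without the narrow arrays and 0.24 without scrambled replicate 2. Without the narrow arrays the siTNF-OMe value was 1.30 (limma adjusted p = 0.0264) and the siTNF-OMe-P value 1.21 (0.0446), and both still passed. The siTNF call did not hold without siTNF replicate 3 (0.86, adjusted p = 0.183) or without the narrow arrays (0.69, adjusted p = 0.355), and 8 of the 15 fits that left out 1 array lost it. With nearly the same size it also missed the threshold without batch terms (1.24, adjusted p = 0.0507), with the hybridization batch alone as a term (1.23, adjusted p = 0.0567) and with only the groups compared in the limma fit (1.24, adjusted p = 0.168). Within the 3 amplification batches the Ptgs2 difference ran from 0.21 to 1.97 for siTNF, from 0.11 to 1.95 for siTNF-OMe and from 0.84 to 2.33 for siTNF-OMe-P, positive in each.

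The promoters of Ptgs2 and Ptges are shown because these 2 synthesis genes varied together between arrays. The sequence is the reference one of RefSeq on GRCm38.p6 and ends at the base before the annotated start. For Ptgs2 it is chr1:150099781-150100030 on the plus strand, and the capitals mark TTGCGCAA, the palindrome bound by C/EBP factors, whose first base lies at -69 from the start.
Ptgs2: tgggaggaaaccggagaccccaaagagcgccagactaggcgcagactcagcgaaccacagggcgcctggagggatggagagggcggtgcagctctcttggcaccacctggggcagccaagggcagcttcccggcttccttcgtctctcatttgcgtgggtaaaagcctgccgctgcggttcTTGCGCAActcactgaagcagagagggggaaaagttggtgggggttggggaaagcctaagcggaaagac
For Ptges it is the last 100 bases before the start, chr2:30903298-30903397 on the minus strand, and the capitals mark 2 GC boxes (GGGCGG) at -53 and -42.
Ptges: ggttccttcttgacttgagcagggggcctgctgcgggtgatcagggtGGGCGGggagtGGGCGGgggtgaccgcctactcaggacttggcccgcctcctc
Of the 10 genes, 7 are in the promoter table (250 bases before to 50 after the start), and among them Ptgs2 alone holds TTGCGCAA, on either strand. Of all 32851 promoters of that length 60 hold it (0.183%). The GC box GGGCGG, searched on both strands, is in 35.7% of all promoters, and 19.5% hold at least 2. It is in the windows of Hpgd, Ltb4r1, Pla2g7, Ptger4, Ptges and Ptgs2, and so is not particular to Ptges. The one of Ptgs2, at -170, is not marked above. The cyclic AMP response motif TGACGT is in 7.51% and lies in the Ptgs2 window at 13 on the minus strand. Also searched on both strands were the TATA box TATAAA, in 13.6% of all promoters and the Hpgd window, and the PU.1 motif GAGGAAG, in 13.6% and the windows of Ltc4s and Ltb4r1. The NF-kB motif is in 8.46% of all promoters and was not found in the windows of the 7 genes, which says only that these letters are not in them.

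Ptges encodes microsomal prostaglandin E synthase-1, which turns prostaglandin H2 into prostaglandin E2. Control arrays lay close together, from 8.94 through a median of 9.03 to 9.22. The scrambled arrays ran from 8.90 through 9.27 to 9.81, and those of siTNF from 8.94 through 9.24 to 10.6. Those of siTNF-OMe ran from 9.36 through 9.69 to 10.00 and those of siTNF-OMe-P from 9.10 through 9.55 to 10.4. Every siTNF-OMe array was above every Control array, and the other 3 groups overlapped Control. In siTNF a single array, replicate 3, lay far above the rest, whose next value was 9.44. Ptges rose 1.54-fold in siTNF-OMe (0.62 ± 0.18 log2, SE, limma adjusted p = 0.0149, 6 of 6 arrays above the Control mean) and 1.53-fold in siTNF-OMe-P (0.62 ± 0.17, adjusted p = 0.00773, 8 of 8). The values were 0.24 (95% interval -0.12 to 0.59) in scrambled and 0.38 (0.01 to 0.75, adjusted p = 0.194) in siTNF, the latter 0.15 without replicate 3 and 0.16 without the narrow arrays, of which that is one. The siTNF-OMe call did not hold without siTNF-OMe replicate 3 (0.56, adjusted p = 0.0522) or after quantile normalization (0.55, adjusted p = 0.0560).

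Ptgis encodes prostacyclin synthase, an enzyme of blood vessel and other stromal cells. Its signal ran from 9.11 through 9.35 to 9.69 in Control and from 9.63 through 9.73 to 9.87 in scrambled. It ran from 9.67 through 10.02 to 10.3 in siTNF, from 9.82 through 9.94 to 10.04 in siTNF-OMe and from 9.78 through 9.98 to 10.1 in siTNF-OMe-P. The last 2 groups did not overlap Control, and 24 of the 27 dosed arrays lay above all Control arrays. Ptgis rose 1.30-fold in scrambled (0.38 ± 0.09 log2, limma adjusted p = 0.00215, 7 of 7 arrays above the Control mean) and 1.55-fold in siTNF (0.64 ± 0.09, adjusted p = 4.81e-06, 6 of 6). It rose by 0.56 ± 0.09 in siTNF-OMe and 0.59 ± 0.08 in siTNF-OMe-P (limma adjusted p = 2.00e-05 and 2.90e-06). With fewer arrays, in hybridization batch 2 alone, Ptgis did not pass in scrambled, siTNF and siTNF-OMe. The values there were 0.31, 0.47 and 0.48 (limma adjusted p = 0.241, 0.0636 and 0.0566). The SD of Ptgis within groups was 0.09 to 0.25. Markers of endothelium moved with it: 3 of 4 rose in scrambled, 4 of 4 in siTNF and 3 of 4 in each of the other 2 groups, and the mean of the 4 lay between 8.54 and 9.11 in Control and between 9.21 and 9.95 in the dosed arrays. All 4 smooth muscle markers rose in each dosed group too, as did 2 of 5 fibroblast markers in scrambled, 3 in siTNF and 4 in each of the other 2 groups. The part of these cells in the Ptgis difference was not tested. In bulk tissue, more cells of a type and more RNA per cell cannot be told apart.

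Hpgd encodes 15-hydroxyprostaglandin dehydrogenase, which inactivates prostaglandins and is abundant in colon epithelium. It ran from 11.0 through 11.8 to 11.9 in Control, from 10.8 through 11.2 to 11.9 in scrambled and from 10.8 through 11.2 to 12.0 in siTNF. It ran from 10.7 through 11.1 to 11.2 in siTNF-OMe and from 9.69 through 11.0 to 11.6 in siTNF-OMe-P. All groups overlapped Control, although the siTNF-OMe arrays sat in the lower part of the Control range or below it. Hpgd fell by 0.67 ± 0.20 log2 in siTNF-OMe-P (1.59-fold lower, limma adjusted p = 0.0168, 7 of 8 arrays below the Control mean). The call did not hold without siTNF-OMe-P replicate 8, the lowest array (-0.50, adjusted p = 0.0645), or with only the groups compared in the limma fit (-0.66, adjusted p = 0.0995). The siTNF-OMe value was -0.56 (95% interval -1.003 to -0.12, adjusted p = 0.0824), and those of scrambled and siTNF were -0.31 and -0.28. Though not in the main fit, the siTNF-OMe value passed by limma after quantile normalization (-0.66, adjusted p = 0.0108) and under other settings. Among these were array SD as a covariate (-0.69, limma adjusted p = 0.00256) and only the groups compared (-0.56, 0.0473). Without the narrow arrays Hpgd differed by -0.65 in scrambled, -0.85 in siTNF-OMe and -0.76 in siTNF-OMe-P, and all 3 passed, with siTNF at -0.46 (adjusted p = 0.117). Far more of all probe sets passed in these 3 comparisons without the narrow arrays too (counts in the last section). Of 6 epithelial markers, Slc26a3, the chloride exchanger of surface cells, fell in siTNF-OMe (-0.65) and siTNF-OMe-P (-0.70), while Krt20, a keratin of surface cells, rose in all 4 groups. Their part in the Hpgd values was not tested.

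Ptger4 encodes EP4, a receptor for prostaglandin E2. Its signal ran from 8.18 through 8.73 to 9.52 in Control and from 8.20 through 8.59 to 8.82 in scrambled. It ran from 8.28 through 8.62 to 9.22 in siTNF, from 8.48 through 8.56 to 8.83 in siTNF-OMe and from 8.27 through 8.54 to 8.79 in siTNF-OMe-P. The groups overlapped throughout, and the Control arrays had the widest spread (SD 0.49). The differences of -0.23, -0.18, -0.19 and -0.28 passed in no group (limma adjusted p from 0.214 to 0.496). This gene followed the spread of the arrays: after group and batch were removed, its r with array SD was 0.86 over 36 arrays. Without the narrow arrays Ptger4 differed by -0.64, -0.49, -0.60 and -0.66 in the 4 groups (limma adjusted p = 1.03e-04, 0.00271, 1.32e-04 and 8.10e-05). With array SD as a covariate the 4 values were -0.33, -0.35, -0.32 and -0.35, and all passed. Ptger4 therefore passed or did not pass with the treatment of the narrow arrays, which are most frequent in Control. Without those arrays more of all probe sets passed in each of the 4 groups as well (counts in the last section). The count over all probe sets with array SD as a covariate is not given here.

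Alox5ap encodes FLAP, which presents arachidonic acid to 5-lipoxygenase. Its signal ran from 8.56 through 8.95 to 9.14 in Control. It ran from 9.34 through 10.00 to 10.6 in scrambled and from 9.68 through 9.99 to 11.5 in siTNF. It ran from 9.87 through 10.3 to 10.7 in siTNF-OMe and from 9.71 through 10.3 to 11.1 in siTNF-OMe-P. All 27 dosed arrays lay above all 9 Control arrays, and the 4 dosed groups overlapped one another. Alox5ap rose 2.07-fold in scrambled (1.05 ± 0.18 log2, limma adjusted p = 9.21e-05) and 2.54-fold in siTNF (1.35 ± 0.19, adjusted p = 4.36e-06). It rose 2.55-fold in siTNF-OMe (1.35 ± 0.19) and 2.52-fold in siTNF-OMe-P (1.33 ± 0.17), with limma adjusted p values of 2.89e-06 and 8.90e-07. It was the 1 gene of the 10 whose scrambled and Control arrays did not overlap, as did those of 2.68% of all probe sets. The arrays of 2 of the 10 genes in siTNF, 4 in siTNF-OMe and 3 in siTNF-OMe-P did not overlap with Control, beside 3.24%, 6.36% and 3.51% of probe sets. Within the amplification batches the Alox5ap differences ran from 0.72 to 2.12 over the 4 groups. Without the narrow arrays Alox5ap differed by 0.95, 0.98, 1.20 and 1.17 in the 4 groups, and all passed. In hybridization batch 1 alone, with fewer arrays, the scrambled value was 1.30 and did not pass (limma adjusted p = 0.065).

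Pla2g7 encodes the secreted acetylhydrolase that breaks down platelet-activating factor, and macrophages are a known source. Control arrays ran from 7.87 through 8.68 to 8.96. Scrambled arrays ran from 8.90 through 9.45 to 10.5 and siTNF arrays from 9.05 through 9.44 to 10.9. Those of siTNF-OMe ran from 9.58 through 9.94 to 10.4 and those of siTNF-OMe-P from 9.12 through 9.77 to 10.7. Of the 27 dosed arrays 26 lay above all Control arrays, the exception being in scrambled. Pla2g7 rose 2.01-fold in scrambled (1.01 ± 0.20 log2, limma adjusted p = 6.48e-04, 7 of 7 arrays above the Control mean) and 2.22-fold in siTNF (1.15 ± 0.21, adjusted p = 2.06e-04, 6 of 6). It rose 2.64-fold in siTNF-OMe (1.40 ± 0.21, adjusted p = 9.68e-06) and 2.24-fold in siTNF-OMe-P (1.16 ± 0.20, adjusted p = 4.16e-05). Without the narrow arrays the Pla2g7 values were lower, at 0.78, 0.69, 1.12 and 0.88 in the 4 groups. All still passed (limma adjusted p from 3.82e-05 to 0.00930). In hybridization batch 1 alone, with fewer arrays, the values were 1.32, 1.34, 1.31 and 1.39. None of these passed (limma adjusted p from 0.0652 to 0.102).

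Markers of macrophages moved with Alox5ap and Pla2g7. All 8 macrophage markers rose in scrambled, siTNF and siTNF-OMe and 7 of 8 in siTNF-OMe-P, with Cd68, a lysosomal protein of macrophages, between 1.87 and 2.18 log2 and the integrin gene Itgam between 0.49 and 0.64. The mean of the 8 lay between 8.63 and 9.59 in Control and between 10.04 and 11.0 in the dosed arrays, with no overlap. Of 7 neutrophil markers 3 rose in scrambled and 4 in each TNF siRNA group, the calprotectin gene S100a8 by 2.04 to 3.25, and their mean lay between 7.52 and 8.23 in Control and between 8.18 and 9.94 in the dosed arrays. Markers of endothelium, smooth muscle and fibroblasts rose as well, as given under Ptgis. The part of any of these cell types in the differences of Alox5ap and Pla2g7 was not tested.

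Ltc4s, Alox15 and Ltb4r1 had small differences. Ltc4s encodes leukotriene C4 synthase, an enzyme of mast cells and eosinophils. Its signal lay between 7.41 and 8.00 in all 36 arrays, with group medians of 7.62 to 7.72, and its differences from Control of 0.04, 0.07, -0.01 and 0.02 had 95% intervals within -0.18 and 0.25. Every group overlapped the others for Ltc4s. The siTNF-OMe value turned its sign under quantile normalization (0.03), median centring (0.004) and other settings. None of 8 mast cell markers rose in any group (1, Cma1, fell in siTNF), and 0 of 5 eosinophil markers passed in any by limma.

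Alox15 encodes a 12/15-lipoxygenase, known from resident macrophages and eosinophils. It ran from 7.81 through 8.00 to 8.22 in Control and from 7.71 through 7.77 to 8.00 in scrambled. It ran from 7.21 through 7.73 to 7.86 in siTNF, from 7.60 through 7.69 to 8.15 in siTNF-OMe and from 7.50 through 7.72 to 8.11 in siTNF-OMe-P. Each group overlapped Control, yet 20 of the 27 dosed arrays lay below all Control arrays. Alox15 fell by 0.35 ± 0.10 log2 in siTNF (1.27-fold lower, limma adjusted p = 0.0133, 6 of 6 arrays below the Control mean). The other values were -0.21 (95% interval -0.41 to -0.02), -0.26 (-0.46 to -0.06) and -0.24 (-0.42 to -0.05) in scrambled, siTNF-OMe and siTNF-OMe-P, with adjusted p = 0.169, 0.0707 and 0.0758. The siTNF call did not hold without siTNF replicate 4 (-0.26, adjusted p = 0.0865), with array weights (-0.25, adjusted p = 0.0632) or with only the groups compared in the limma fit (-0.35, adjusted p = 0.114), and the siTNF-OMe and siTNF-OMe-P values passed under quantile normalization (-0.23 and -0.23) and other settings.

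Ltb4r1 encodes BLT1, the high-affinity receptor for leukotriene B4. Its signal ran from 7.64 through 7.87 to 8.42 in Control, and its medians in the dosed groups were 8.03, 7.95, 8.02 and 7.95. The groups overlapped, and the differences from Control of 0.11, 0.15, 0.14 and 0.10 passed in none (limma adjusted p from 0.372 to 0.637). Without the narrow arrays the siTNF-OMe value was 0.24 and passed (adjusted p = 0.0188), and with array SD as a covariate the siTNF value was 0.22 and passed (adjusted p = 0.0434). With array weights the values of scrambled (0.17, limma adjusted p = 0.0249), siTNF-OMe (0.23, 0.00480) and siTNF-OMe-P (0.16, 0.0444) passed. More of all probe sets passed with array weights and without the narrow arrays too (counts in the last section). For array SD as a covariate that count is not given here.

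**Figure D2:**
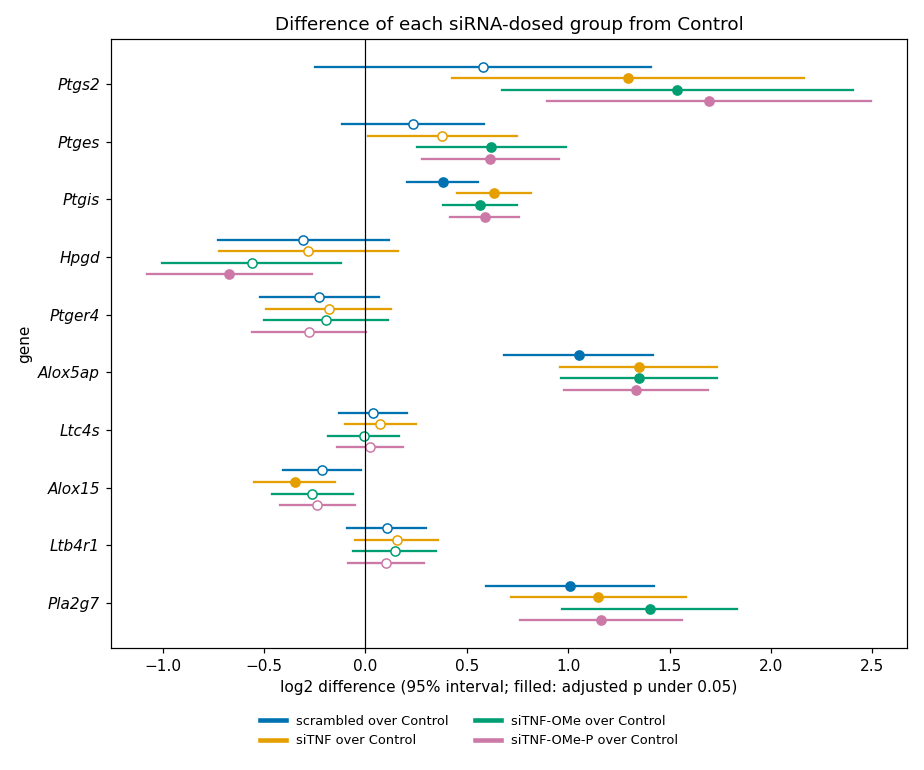
Log2 difference from Control (x axis) for each gene (y axis) in the 4 dosed groups, with 95% intervals; filled points have a limma adjusted p under 0.05. The 4 values of Alox5ap lie between 1.05 and 1.35, those of Ptgs2 have the widest intervals, and those of Ltc4s lie at 0.07 or less.

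Among the siRNA-dosed groups the question is whether the TNF siRNAs changed these genes relative to scrambled siRNA, and whether the chemical forms differed. No gene passed. By limma, 0 of 10 genes and 0 of 28853 probe sets (0.00%) passed in each of the 6 comparisons, while 311, 455 and 836 probe sets had an unadjusted p under 0.05 in the comparisons of the 3 TNF siRNAs, in the order given above, with scrambled. Of the 10 genes, 1, 1 and 3 did. Ptgs2 had the largest differences, 0.72 (95% interval -0.21 to 1.64) for siTNF, 0.96 (0.04 to 1.87) for siTNF-OMe and 1.12 (0.26 to 1.97) for siTNF-OMe-P over scrambled, with limma adjusted p = 1.00 in each. All 6 siTNF-OMe arrays and 7 of 8 siTNF-OMe-P arrays lay above the scrambled mean for Ptgs2, but the groups overlapped. Ptges differed by 0.14 (-0.25 to 0.53), 0.39 (-0.002 to 0.77) and 0.38 (0.02 to 0.74), and Ptgis by 0.25 (0.06 to 0.45), 0.18 (-0.01 to 0.38) and 0.21 (0.03 to 0.39). The 3 comparisons share the 7 scrambled arrays, among them the high replicate 2. Without that array the Ptgs2 differences from scrambled were 1.05, 1.32 and 1.46, and none passed by limma. Without siTNF replicate 3 the siTNF difference from scrambled was 0.28 for Ptgs2 and -0.09 for Ptges, and without the narrow arrays it was 0.34 and -0.09.

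**Figure D3:**
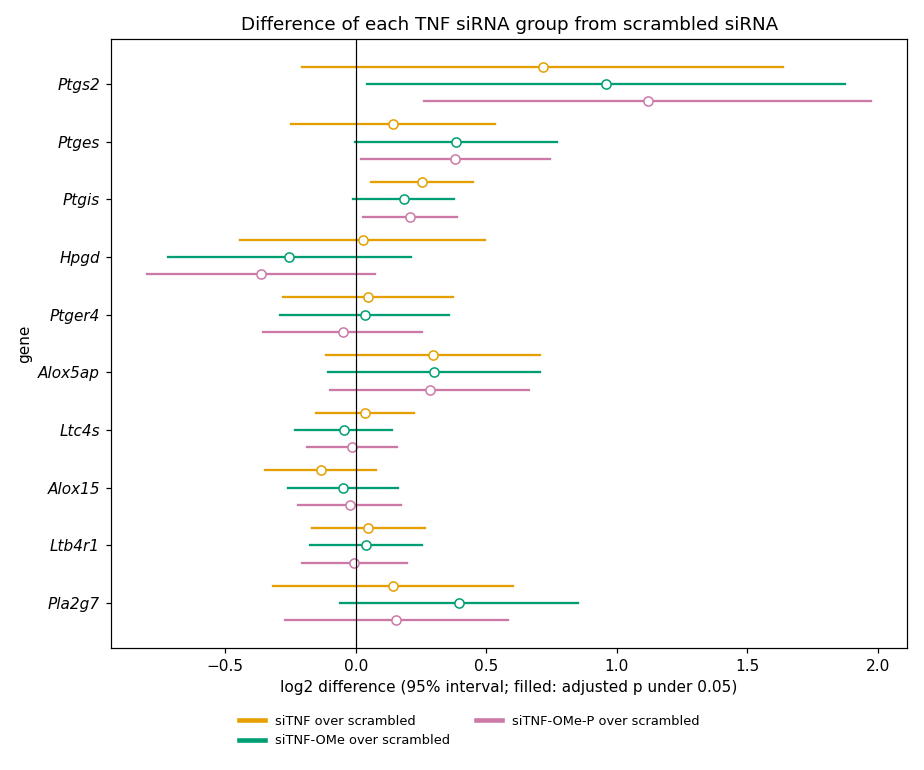
Log2 difference of each TNF siRNA group from scrambled siRNA (x axis) for each gene (y axis), with 95% intervals. No point is filled, since no limma adjusted p was under 0.05, and the Ptgs2 intervals reach from -0.21 to 1.97.

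Between the forms of the TNF siRNA, which differ in the O-methyl and O-methyl-propanediol nucleotides they carry, dose and time are not given in the sources used here and the groups are set side by side as labelled. The differences of the 10 genes lay between -0.28 and 0.25 for siTNF-OMe over siTNF, between -0.39 and 0.40 for siTNF-OMe-P over siTNF and between -0.24 and 0.16 for siTNF-OMe-P over siTNF-OMe. Without siTNF replicate 3 the first range was -0.41 to 0.70 and the second -0.51 to 0.83, with Ptgs2 highest in both (0.70 and 0.83) and Ptges at 0.49 and 0.47. Without the narrow arrays Ptgs2 differed by 0.60 for siTNF-OMe over siTNF and by -0.09 for siTNF-OMe-P over siTNF-OMe, the latter with its sign turned. In these comparisons, over all arrays, 494, 1002 and 74 probe sets and 0, 0 and 0 of the 10 genes had an unadjusted p under 0.05. For Alox5ap, siTNF-OMe over siTNF was 0.003 and siTNF-OMe-P over siTNF -0.01 (0.25 and 0.22 without siTNF replicate 3). The widest interval was that of Ptgs2, which reached up to 1.29 for siTNF-OMe-P over siTNF. The 60 differences among siRNA groups were recomputed 1710 times under other settings, and 0 passed, with the lowest adjusted p at 0.0823.

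The rest of the pathway was read from a list of 61 other genes, of which 56 had a single-gene probe set (Ptgs1, Akr1b3, Ggt1, Ltb4r2 and Fpr2 had none). Over Control, 5 rose and 2 fell in scrambled, 7 and 2 in siTNF, 11 and 6 in siTNF-OMe and 10 and 4 in siTNF-OMe-P, beside 11.7%, 13.8%, 14.8% and 15.9% of all probe sets. Medians of the 56 lay between -0.013 and 0.011. Among siRNA groups 0 of 56 passed by limma in any comparison, with 0 to 5 at an unadjusted p under 0.05.

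A few genes rose in all 4 groups. Ptafr, the receptor for platelet-activating factor, rose by 0.82 ± 0.10 in scrambled, 0.86 ± 0.10 in siTNF, 1.03 ± 0.10 in siTNF-OMe and 0.93 ± 0.09 in siTNF-OMe-P. Ggt5, which cleaves leukotriene C4 to leukotriene D4, rose by 0.58, 0.80, 0.96 and 0.76, and Cmklr1, a receptor for chemerin and resolvin E1, by 0.77, 0.83, 0.90 and 0.82. None of these 3 overlapped Control in any group. Pla2g15, a lysosomal phospholipase, rose by 0.64, 0.56, 0.81 and 0.68, and Tbxas1, thromboxane synthase, by 0.33, 0.30, 0.41 and 0.36. Ptgr1, a prostaglandin reductase that also inactivates leukotriene B4, fell by 0.44, 0.47, 0.34 and 0.31, and the secreted phospholipase gene Pla2g3 by 0.32, 0.40, 0.46 and 0.41. Cbr1, a carbonyl reductase that acts on prostaglandin E2, fell by 0.61 in siTNF-OMe and 0.63 in siTNF-OMe-P, and Pafah1b3, a subunit of the intracellular platelet-activating factor hydrolase, fell by 0.42 and 0.41 there. Alox5, the partner enzyme of FLAP, named after its values were seen, differed by -0.01, -0.003, -0.05 and 0.03 from Control, and its adjusted p was 0.842 or higher.

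**Figure D4:**
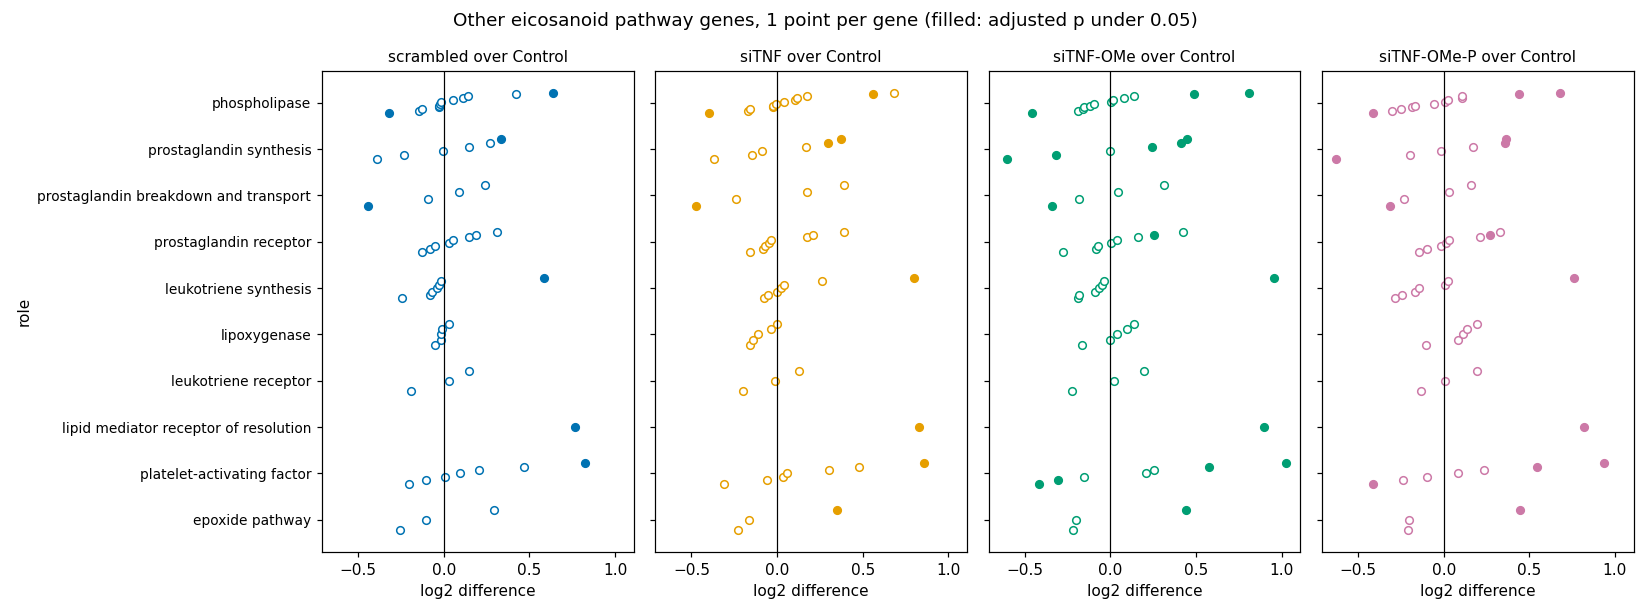
Log2 difference from Control (x axis) of 56 other pathway genes grouped by role (y axis), with 1 panel per dosed group and filled points for a limma adjusted p under 0.05. Most points lie near 0, and Ptafr, Cmklr1 and Ggt5 are among those farther to the right, with Ptafr at 0.82 to 1.03.

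The genes also varied from animal to animal within groups. After group and batch were taken out, Alox5ap and Pla2g7 had r = 0.949 over the 36 arrays, and each was the closest of all single-gene probe sets to the other. Ptgs2 and Ptges had r = 0.82, and Hpgd ran against both, at -0.68 with Ptges and -0.60 with Ptgs2. The genes most like Ptgs2 were Ereg (r = 0.898), an epidermal growth factor receptor ligand, Plau (0.884), a plasminogen activator, and Ch25h (0.873), a cholesterol hydroxylase. Those most like Ptges were the cytokine gene Il6 (0.943), the protease gene Adamts9 (0.933) and Stc1 (0.914). For Alox5ap, Serpina3n (0.894) and Fmnl2 (0.879) followed Pla2g7. For Pla2g7, the endothelium marker Cdh5 (0.887) and Cybb (0.879), an NADPH oxidase subunit of phagocytes, followed Alox5ap.

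The closest genes for the others were Trim3, Dapk1 and Itga7 for Ptgis (r of 0.762 to 0.732), Cryl1, Vdr and Tst for Hpgd (0.943 to 0.940) and Smpd1, Siva1 and Ids for Ptger4 (0.945 to 0.933). They were Ankrd39, Pcbp4 and Orai2 for Ltc4s (0.858 to 0.821), Loxl4, Ccn5 and Glipr2 for Alox15 (0.795 to 0.733) and Hoxc10, E2f1 and Wfikkn2 for Ltb4r1 (0.925 to 0.907). The arrays share their normalization and spread, and r with array SD, computed the same way, was 0.62 for Hpgd and -0.57 for Ltb4r1 but 0.14 for Alox5ap and -0.08 for Ptgs2. These correlations are descriptions and were not tested.

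A single animal, siTNF replicate 3, had the highest value of all 36 arrays for Ptgs2 (11.5), Ptges (10.6), Ptgis (10.3), Alox5ap (11.5), Ltb4r1 (8.47) and Pla2g7 (10.9). Its MPO activity was 0.703 units per mg, the highest in its group, and its array was narrow (SD 1.69). The second highest array for Ptgs2, Ptges, Alox5ap and Pla2g7 was siTNF-OMe-P replicate 3. Scrambled replicate 2 ranked 3 of 36 for Ptgs2 and Pla2g7. These 3 arrays share amplification batch 2 and hybridization batch 1, as do Control replicates 3 and 4 and siTNF-OMe replicate 2. The model has terms for each kind of batch but none for their combination, whose part was not tested. Without siTNF replicate 3 the siTNF differences were 1.11 for Alox5ap, 0.95 for Pla2g7 and 0.58 for Ptgis, and all 3 passed by limma (adjusted p = 1.97e-05, 0.00168 and 4.60e-05).

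Among the 27 dosed animals, the relation of each gene to MPO activity was fitted with group and batch in the model. Per doubling of MPO, Alox5ap differed by 0.16 log2 (95% interval 0.05 to 0.28), Pla2g7 by 0.17 (0.05 to 0.28), Ptges by 0.16 (0.03 to 0.28) and Ptgs2 by 0.29 (-0.02 to 0.60). None passed adjustment: limma called 0 of 28853 probe sets and gave an adjusted p of 0.980 for each of these 4, while 984 probe sets (3.41%) and 3 of the 10 genes had an unadjusted p under 0.05. With values centred on their group, Alox5ap had r = 0.405 (permutation p = 0.0348) and rho = 0.364 (permutation p = 0.0608) with MPO, and Pla2g7 r = 0.389 (permutation p = 0.0448) and rho = 0.360 (permutation p = 0.0666). The largest r was that of Ltb4r1, at 0.422 (permutation p = 0.0278) with rho = 0.427 (permutation p = 0.0276), although its slope was 0.05 (-0.01 to 0.11) in the model with batch. The 10 genes were each tested against MPO in this way, and permutation p values of r for the other 7 were 0.0695 or higher. Without the animals farthest from the median, siTNF-OMe-P replicates 5 and 6 with the lowest MPO, r was 0.499 for Alox5ap, 0.509 for Pla2g7 and 0.440 for Ltb4r1. The slopes were not alike in the hybridization batches: in batch 1 and batch 2 they were 0.26 and 0.06 for Alox5ap, 0.27 and 0.06 for Pla2g7, 0.12 and 0.03 for Ltb4r1, 0.31 and -0.02 for Ptges and 0.69 and -0.10 for Ptgs2. The relations of Ptges and Ptgs2 with MPO therefore did not hold within both batches.

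**Figure D5:**
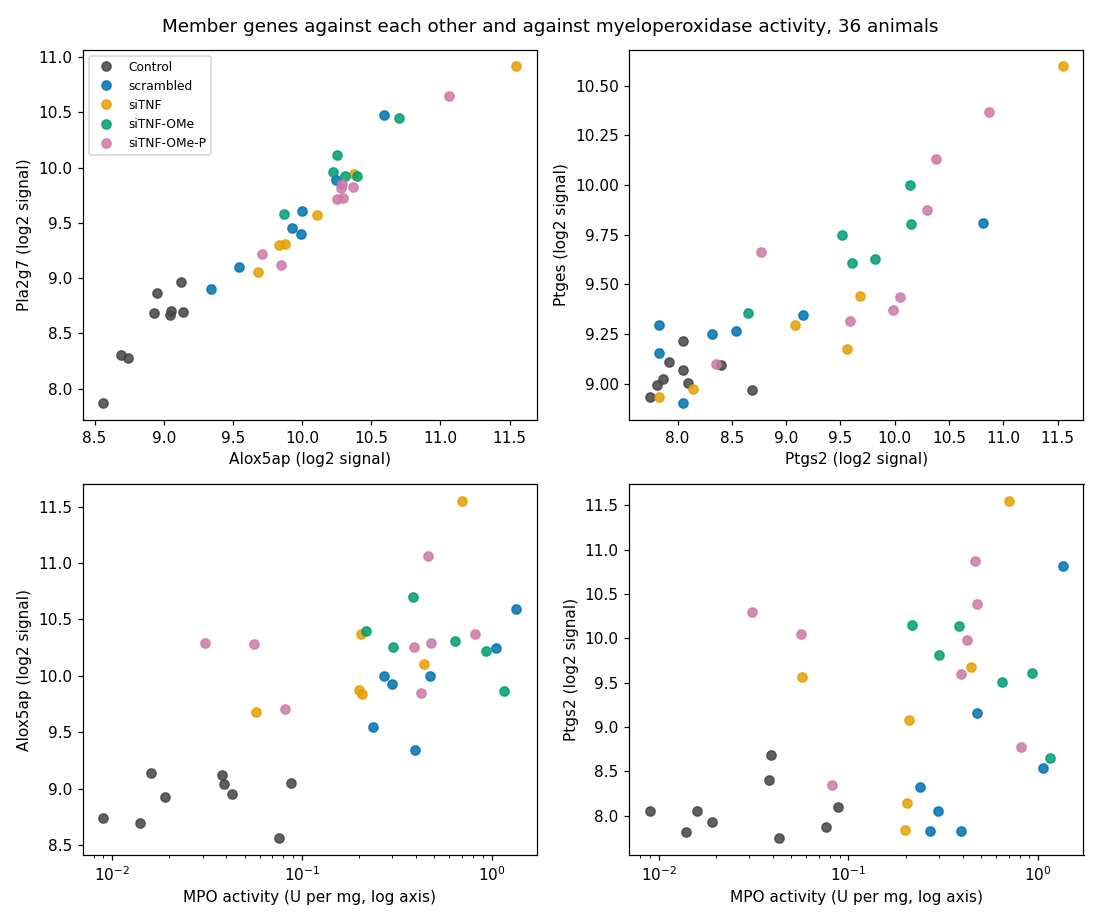
Top: log2 signal of Pla2g7 against Alox5ap and of Ptges against Ptgs2. Bottom: log2 signal of Alox5ap and of Ptgs2 against MPO activity (log axis); 1 point per animal, coloured by group. Pla2g7 and Alox5ap lie along 1 line across groups, while dosed animals range from 7.83 to 11.5 for Ptgs2.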

How the data were processed

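The signals were deposited on a log2 scale, made by the authors with Partek and RMA per the submitters' processing notes, which give no version. No probe set was left out. The 21789 probe sets with 1 gene in the platform annotation were named, and 1621 with several and 5443 with none were not. Ptges, Ptgis, Alox15 and Pla2g7 overlap other annotated genes (lncRNAs or pseudogenes), whose signal the probe sets could share. The model was fitted with limma 3.58.1 (R 4.3.3) on all 36 arrays: group, 3 amplification batches and 2 hybridization batches, a mean-variance trend, 28 residual degrees of freedom, and two-sided tests with Benjamini-Hochberg adjustment over 28853 probe sets per comparison at 0.05. The number of arrays limits the precision. Likeness used Pearson's r of residuals from group and batch, and MPO relations 100000 two-sided permutations. The fit was also run on simulated data with planted differences and independent noise. Those data held no batch effects and no narrow arrays, so that run does not bear on either.

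The genes, lists and tests were chosen with earlier results of these data known. The text names all 10 genes, Tnf, the other pathway genes that passed (all if at most 8, else the 4 risen and 4 fallen with the largest difference), the 3 most alike genes for each, and marker genes by list. Alternatives were other batch terms, the replicate number as a block, each hybridization batch alone, quantile normalization and median centring. Others were 11541 dim probe sets left out (the lowest 40%), no trend, robust moderation, array weights, only the groups compared and each array left out. Chosen after seeing the data were no narrow arrays (SD under 1.7) and array SD as a covariate. Each array carries its own colon measures, but no label tells whether animals shared a cage or litter. Python 3.11.15, NumPy 2.4.6, pandas 2.3.3 and matplotlib 3.10.9 were used.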

Additional observations from a re-analysis of the deposited data

Results flagged for a closer look

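In 6 of 50 sets of values (10 genes in 5 groups) 1 array stood apart from the rest of its group by Dixon's criterion, where chance gives about 1 in 20, or 2.5 of 50. In siTNF, replicate 3 was high for Ptges (10.6) and Alox5ap (11.5), replicate 4 was high for Ptger4 (9.22), and the same replicate 4 was low for Alox15 (7.21). In siTNF-OMe, replicate 5 was high for Alox15 (8.15). In Control, replicate 4 was high for Ltb4r1 (8.42). The differences between the groups' effects over Control are the comparisons among siRNA groups given in the report, and by limma none passed for the 10 genes.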

How the results depend on the processing

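The count of the 10 genes called over Control changed by more than 1.5 times under these settings. In hybridization batch 1 alone it was 1 for scrambled (3 as reported) and 2 for each TNF siRNA (5, 5 and 6 as reported), and in hybridization batch 2 alone 3 for siTNF, with fewer arrays in each. With only the groups compared it was 3 for siTNF. With array weights it was 7 for scrambled and 9 for siTNF-OMe, and without the narrow arrays 5 and 8. With array SD as a covariate it was 8 for siTNF-OMe. Counts over all probe sets are given below only for array weights and without the narrow arrays. The other counts here are therefore not read as results about the 10 genes. Calls over all probe sets also rose with array weights and without the narrow arrays (counts below), and the cause was not tested. With 1 array left out the count of the 10 genes ran from 3 to 3, 4 to 5, 4 to 6 and 5 to 7 for the 4 groups. Among siRNA groups it was 0 in every setting run. No called difference of the 10 genes reversed. Within batches 57 of 57 called values by amplification batch and 38 of 38 by hybridization batch kept their direction. The batches are parts of the arrays on which these differences were called, so that agreement largely follows from the selection and is no independent support.

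The replicate numbers do not pair the arrays: of 64 pairs with the same number 32 had r above 0.1, from -0.697 to 0.868. With the replicate number as a block, 3, 4, 6 and 6 of the 10 genes were called. Ptgs2 in siTNF lost its call (1.14, limma adjusted p = 0.0519) and Hpgd in siTNF-OMe gained one (-0.65, 0.0103). The count over all probe sets with that block is not given here, so these changes are not read as particular to the 10 genes.

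Over all 28853 probe sets, counts without the narrow arrays were 14417, 6021, 15575 and 13845 against 3384, 3982, 4275 and 4596. With array weights they were 16262, 7924, 13758 and 13579. The higher counts of the 10 genes under these settings therefore came with higher counts over all probe sets. Of the 56 other pathway genes, 29, 17, 38 and 34 passed without the narrow arrays against 7, 9, 17 and 14, and 37, 20, 35 and 40 with array weights. With array weights 198 probe sets passed for siTNF-OMe-P over scrambled, and 1 for siTNF-OMe over siTNF, none of them among the 10 genes. The files hold no background measure, so for Ltc4s, Alox15 and Ltb4r1, whose means rank in the lower part of all probe sets (40.9, 44.0 and 47.8 percentile), a small difference may be understated.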
